A study of Arabidopsis thaliana with 4 samples.

Results

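Arabidopsis encodes each protein of the cytosolic ribosome in a small family of paralogous genes, and the 53 genes described here are members of 23 such families of the large (60S) subunit, RPL3 to RPL19 and the stalk proteins RPP0 to RPP2. They were listed by locus, and all 53 were found among the 24750 genes of the count table. The libraries came from an Oxford Nanopore (ONT) direct RNA sequencing (DRS) study of the wild type strain Col-0, with 2 biological replicates of floral buds and 2 of seedlings. In DRS native poly(A) RNA is read as it passes through a pore, with no PCR, so that 1 read stands for 1 RNA molecule. Both stages began as seeds on half-strength MS plates with sucrose and agar, under a cycle of long days. The seedlings were harvested after 14 days on plates, whereas the floral buds came from plants moved to soil for a further 3 weeks. No mutant, transgene or treatment was involved, and stage, organ, age and growth medium cannot be told apart in this design. The rounded counts summed to 797005 and 669491 in floral buds and to 579485 and 620205 in seedlings, where 3 counts correspond to between 3.76 and 5.18 counts scaled to a common library total (CPM).

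A ribosome carries 1 copy of most of its proteins, so the paralogs of a family supply the same position in the 60S subunit. The large subunit holds the peptidyl transferase centre, where amino acids are joined, the tunnel through which the new chain leaves, and a flexible stalk of P proteins that recruits elongation factors. Ribosomal protein genes are known to be most active in growing and dividing plant tissues, and mutants of single paralogs in Arabidopsis have leaf, embryo or growth phenotypes. Near-identical copies within a family limit how well reads can be given to 1 gene. Their sequences show where the paralogs can be told apart.

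The RPL9 pair, AT1G33120 and AT1G33140 (PGY2), encodes identical proteins of 194 residues from open reading frames that differ at 5 of 585 bases. All 5 lie between coding bases 451 and 540, which are shown because only they separate reads of the coding sequence of these genes, with capitals at the bases that differ.
AT1G33120: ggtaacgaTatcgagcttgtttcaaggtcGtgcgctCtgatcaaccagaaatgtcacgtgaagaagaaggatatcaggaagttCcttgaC
AT1G33140: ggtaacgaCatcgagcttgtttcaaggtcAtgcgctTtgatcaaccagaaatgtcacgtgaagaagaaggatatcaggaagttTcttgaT
The RPP0 pair, AT3G09200 and AT3G11250, shared 96% of protein positions, and 13 of the first 90 coding bases differ, again in capitals.
AT3G09200: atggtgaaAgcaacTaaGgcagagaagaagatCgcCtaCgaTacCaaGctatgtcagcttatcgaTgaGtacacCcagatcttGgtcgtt
AT3G11250: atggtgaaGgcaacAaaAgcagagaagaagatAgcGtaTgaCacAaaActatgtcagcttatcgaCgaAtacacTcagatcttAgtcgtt
The RPL14 pair, AT2G20450 and AT4G27090, shared 93.3% of protein positions and differed at 63 of 405 coding bases. Coding bases 20 to 109, with 17 differences in capitals, are shown because the stages differed in the usage of these paralogs.
AT2G20450: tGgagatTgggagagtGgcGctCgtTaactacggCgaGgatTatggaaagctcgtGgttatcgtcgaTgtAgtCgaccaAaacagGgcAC
AT4G27090: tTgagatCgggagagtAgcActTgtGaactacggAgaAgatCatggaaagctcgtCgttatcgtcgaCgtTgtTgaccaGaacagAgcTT
Reads were joined to genes by the authors without regard to strand, and the annotation places another gene over 13 of the 53 members. Counts of near-identical or overlapping genes are therefore uncertain, and the effect of this on the values below was not tested.

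The 53 members together took a larger share of all counts in floral buds than in seedlings. The summed share was 2.79% (95% Wilson interval 2.76 to 2.83) and 2.59% (2.55 to 2.63) in the floral bud libraries. In the seedling libraries it was 1.64% (1.61 to 1.67) and 1.71% (1.68 to 1.74). Both floral bud libraries lay above both seedling libraries, with means of 2.69% ± 0.145 in floral buds and 1.67% ± 0.0515 in seedlings (SD, n = 2 each), a ratio of 1.61. The difference of 1.02 percentage points had an exact permutation p of 0.33, two-sided, which is the smallest that 2 against 2 libraries allow. The intervals cover counting error only.

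The main lists of the other cytosolic ribosomal proteins had ratios near that of the members. The 58 other large-subunit genes took 2.90% and 2.68% of counts in floral buds versus 1.68% and 1.76% in seedlings. The 89 small-subunit genes took 4.08% and 3.91% in floral buds versus 2.38% and 2.48% in seedlings. The ratios of floral buds over seedlings were 1.62 for the other large-subunit list and 1.65 for the small-subunit list. The 13 further paralogs of the members' own families took 0.248% and 0.233% of counts in floral buds, against 0.116% and 0.117% in seedlings (ratio 2.06). A single gene, AT3G28500, held 510 of their 1976 and 329 of their 1562 counts in floral buds. In seedlings it held 1 of 674 and 3 of 726. The 10 of these paralogs that could be tested had a median log2 fold change of 0.44, against 0.59 in the members. The 26 ribosome assembly genes (nucleolin, fibrillarin and other processing factors) summed to 0.154% and 0.164% in floral buds against 0.119% and 0.104% in seedlings. The 17 translation factor genes summed to 0.996% and 1.07% in floral buds versus 0.882% and 0.859% in seedlings, a ratio of 1.19.

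**Figure D1:**
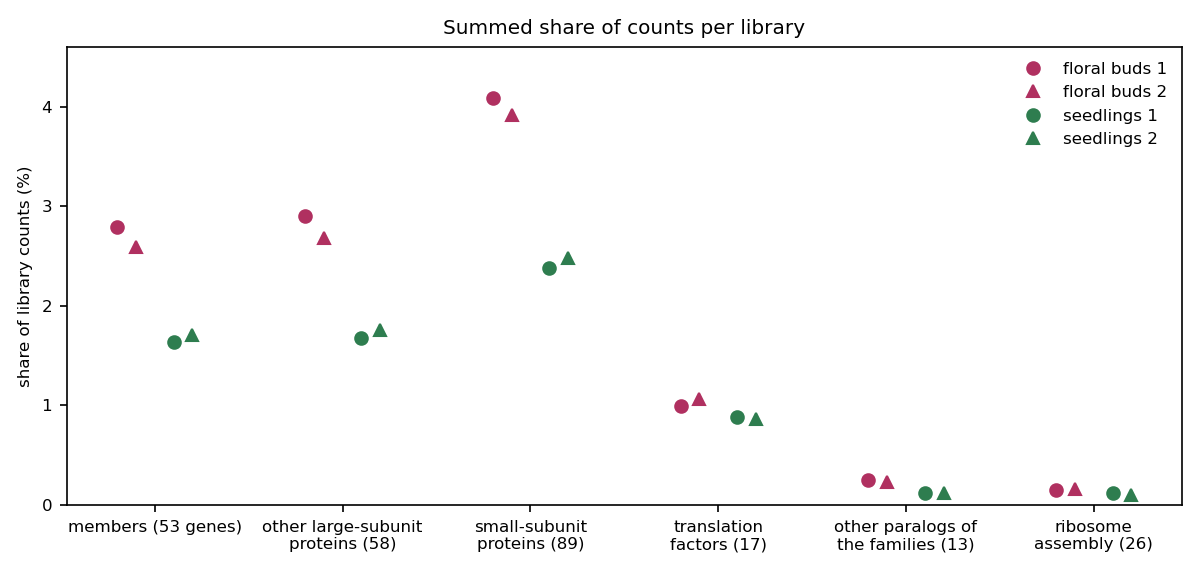
Summed share of library counts (%, linear axis) for the 53 members and 5 other gene lists, 1 point per library, floral buds left of seedlings in each list. The 95% Wilson intervals are smaller than the symbols. For the members the floral bud libraries lie at 2.79% and 2.59% and the seedling libraries at 1.64% and 1.71%.

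The members were then compared gene by gene. Counts were scaled between libraries by their upper quartile, and the stages were compared with edgeR's quasi-likelihood test. The false discovery rate (FDR) was computed over all 18647 genes with at least 5 counts in total. The fit pooled the spread between replicates over genes (common dispersion 0.0213, prior degrees of freedom infinite). The SE and FDR given below therefore hardly reflect the 2 replicates of a single gene. All 53 members were tested, and 37 (69.8%) were higher in floral buds at an FDR below 0.05. Over all genes tested 12.4% were called higher in floral buds and 11.5% lower, and no member was called lower. Differentially expressed genes (DEGs), with an FDR below 0.05 and a fold above 2, included 3 members higher in floral buds (5.66%), against a background of 10.3%, and no member lower, against a background of 9.52%. Most of the members called thus had a fold below 2. A count of 3 DEGs is too small to set their share apart from the background.

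The median log2 fold change (floral buds over seedlings) of the 53 members was 0.59, and that of all genes tested 0.06. The lowest was 0.02 and the highest 1.32. All 53 values were above 0, although AT2G20450, AT2G42740 and AT4G17390 fell below 0 under at least 1 alternative setting. In 46 of the 53 members (86.8%) both floral bud libraries were above both seedling libraries in normalized CPM, as they were in 30.5% of all genes tested. No member had both floral bud libraries below both seedling libraries. The number of members called depended on single libraries. Of the 37, 15 were called under all 14 alternatives tried that tested against no change. A further alternative, glmTreat against a fold of 2, called 0 of the 53 members and is not among the 14. Floral bud and seedling tissue hold different cells, and more cells of a type and more RNA per cell cannot be told apart in bulk libraries.

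**Figure D2:**
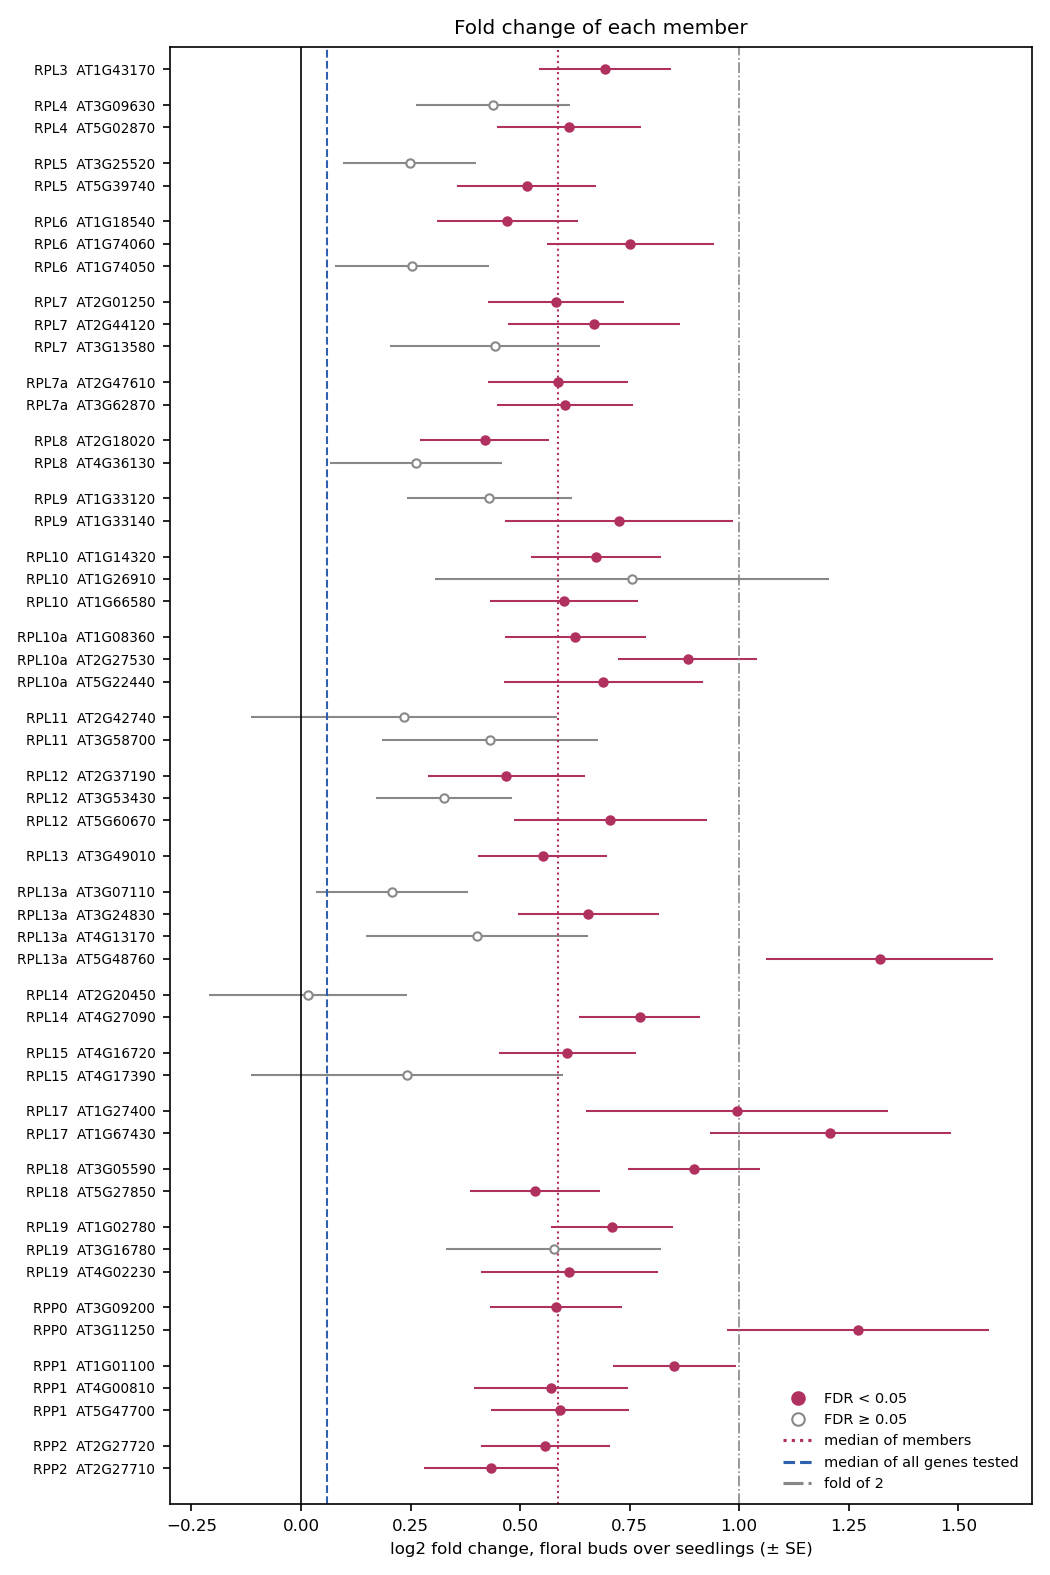
Log2 fold change (floral buds over seedlings, horizontal axis) of 51 of the 53 members with bars of 1 SE, grouped by family. Filled points are the 36 of them with an FDR below 0.05, open points the other 15. Vertical lines mark 0, the median of all genes tested (0.06), the median of the members (0.59) and a fold of 2.

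The smallest FDR among the members belonged to a stalk protein gene. RPP0 forms the base of the stalk on the ribosomal RNA, and dimers of RPP1 and RPP2 hang from it. AT1G01100 (RPP1; chr1:49909-51210, minus strand, TAIR10.1) had 1395 and 1205 normalized CPM in floral buds, against 752 and 689.7 in seedlings. The resulting log2 fold change was 0.85 ± 0.14 (SE) at an FDR of 2.5e-08, the smallest of any member. Both floral bud libraries stood well above both seedling libraries. The other RPP1 genes rose as well, AT4G00810 by 0.57 and AT5G47700 by 0.59 on the log2 scale (FDR 0.0071 and 0.0013). Neither call held without floral buds replicate 1 (FDR 0.129 and 0.131) nor without seedlings replicate 1 (FDR 0.153 and 0.061).

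The RPP0 genes rose to different degrees. AT3G11250 (chr3:3521329-3523071, plus strand) had 103 and 106 CPM in floral buds, against 45.9 and 40.7 in seedlings. It was a DEG, with a log2 fold change of 1.27 ± 0.30 and an FDR of 0.000199. AT3G09200, the more abundant copy per kb of transcript, had 795 and 805 CPM in floral buds versus 537 and 532 in seedlings, which gave a log2 fold change of 0.58 ± 0.15 (FDR 0.000878). Neither gene's libraries overlapped between the stages, and both were called under all 14 alternatives. Of the family's counts AT3G11250 took 11.5% and 11.6% in floral buds versus 7.88% and 7.10% in seedlings.

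The RPP2 members are tandem neighbours on chromosome 2, 257 bases apart, with 83.8% identical protein positions. AT2G27720 had 1005.5 and 761 CPM in floral buds, against 588 and 613 in seedlings, which gave a log2 fold change of 0.56 ± 0.15 (FDR 0.0012). AT2G27710 had 763 and 597 CPM in floral buds, against 450.1 and 557 in seedlings, 0.43 ± 0.15 (FDR 0.0234). Without floral buds replicate 1 these FDR were 0.132 and 0.351, and the second was 0.357 without seedlings replicate 1.

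A further gene of the RPP2 family, AT3G28500, is not among the 53 members and was picked out after its values were seen. It had 510 and 329 counts in the floral bud libraries, against 1 and 3 in the seedling libraries. As a share of all counts this was 172 times higher in floral buds (95% exact interval 66.8 to 631, counting error only). Its protein shared 53.8% of positions with AT2G27710 and 46.3% with AT2G27720. When all 4 RPP2 genes in the table were counted, AT3G28500 made up 25.2% and 24.2% of the family in floral buds, and 0.159% and 0.401% in seedlings. The shares of the 2 RPP2 members were correspondingly smaller in floral buds, 39.8% and 39.6% for AT2G27720 against 52.9% and 48.3% in seedlings. The last gene of the family, AT3G44590, took 4.79% and 5.21% in floral buds versus 6.36% and 7.34% in seedlings.

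RPL12 binds the ribosomal RNA at the foot of the stalk. AT5G60670 had 203 and 179 CPM in floral buds, against 90.02 and 144 in seedlings. Seedlings replicate 1 was the lowest of the 4 libraries, and the log2 fold change of 0.71 ± 0.22 (FDR 0.00808) was not called without it (FDR 0.323) nor without floral buds replicate 1 (FDR 0.07). AT2G37190 was called at an FDR of 0.0403, with a log2 fold change of 0.47 ± 0.18, and in 6 of 14 alternatives. AT3G53430, the leading RPL12 gene in counts, had 680.3 and 558 CPM in floral buds versus 471 and 517 in seedlings, 0.33 ± 0.15 (FDR 0.114).

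RPL3, RPL4 and RPL8 are proteins that reach towards the peptidyl transferase centre or, in the case of RPL4, into the exit tunnel. AT1G43170 (RP1, the only RPL3 member; chr1:16266553-16268945, plus strand) had 779.98 and 888 CPM in floral buds, against 499.5 and 530.4 in seedlings. The resulting log2 fold change was 0.69 ± 0.15 (FDR 4.28e-05), and it was called in 13 of 14 alternatives. AT5G02870 (RPL4) had 566 and 459 CPM in floral buds versus 348 and 324 in seedlings (0.61 ± 0.17, FDR 0.00163, and 0.0643 without floral buds replicate 1). The other RPL4 gene, AT3G09630, had 394 and 356 CPM in floral buds versus 282 and 271 in seedlings, and just missed the threshold (0.44 ± 0.18, FDR 0.0518). The libraries of neither RPL4 gene overlapped between the stages.

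AT2G18020 (EMB2296, known from embryo-defective mutants) led the RPL8 family with 918 and 785 CPM in floral buds, against 600.1 and 674 in seedlings. It rose by 0.42 ± 0.15 on the log2 scale (FDR 0.0219), the smallest fold change among the members called. That call was lost without floral buds replicate 1 (FDR 0.194) and without seedlings replicate 1 (FDR 0.23). Its paralog AT4G36130 had 250.4 and 210.4 CPM in floral buds versus 169 and 215 in seedlings, so its libraries overlapped (0.26 ± 0.20, FDR 0.374).

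RPL5 and RPL11 join the 5S ribosomal RNA before it enters the 60S subunit. AT3G25520 (ATL5, also PGY3, found through mutants with altered leaf polarity) had 751 and 555 CPM in floral buds, against 503 and 598 in seedlings. The stages overlapped, and the log2 fold change of 0.25 ± 0.15 had an FDR of 0.253. Its paralog AT5G39740 (RPL5B, also OLI7, known from mutants with fewer leaf cells) had 637 and 538 CPM in floral buds versus 399 and 424 in seedlings. It rose by 0.51 ± 0.16 (FDR 0.00741, and 0.109 without floral buds replicate 1 or 0.088 without seedlings replicate 1). The RPL5 proteins shared 97.7% of positions.

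The 2 RPL11 members, AT2G42740 (RPL16A) and AT3G58700, were a minor fraction of their family. The 2 other RPL11 genes in the table, AT4G18730 and AT5G45775, which are not members, held 84.6% and 84.8% of RPL11 counts in floral buds versus 78.7% and 85.2% in seedlings. All 4 proteins were identical at 99.5% of positions or more, and pairs of their coding sequences at 83.6% to 91.3%. AT2G42740 had 59.8 and 39.5 CPM in floral buds, against 51.2 and 33.9 in seedlings, with overlap between the stages (0.24 ± 0.35, FDR 0.705). Its 20 to 48 counts per library made it one of the 3 lowest members. AT3G58700 had 118 and 137 CPM in floral buds versus 113 and 76.3 in seedlings (0.43 ± 0.25, FDR 0.206).

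RPL10 joins late in 60S maturation, between the central protuberance and the peptidyl transferase centre. AT1G14320 (SAC52; chr1:4888114-4889704, plus strand), the copy that a dominant suppressor of the stem growth mutant acaulis5 alters, had 943 and 837 CPM in floral buds. In seedlings it had 552 and 564 CPM. The log2 fold change was 0.67 ± 0.15 (FDR 6.04e-05), and the gene was called under all 14 alternatives. AT1G66580 (SAG24) had 522 and 405 CPM in floral buds versus 314 and 298 in seedlings (0.60 ± 0.17, FDR 0.0027, and 0.12 without floral buds replicate 1). AT1G26910 (RPL10B) was the lowest of all members, with 29 and 22 counts in floral buds versus 11 and 12 in seedlings. Its libraries did not overlap, but the log2 fold change of 0.75 ± 0.45 was not called (FDR 0.234). This gene held between 2.19% and 2.44% of RPL10 counts in every library.

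RPL10a forms the L1 stalk, a mobile arm beside the exit site of transfer RNA. AT2G27530 (PGY1, found in the same kind of leaf mutant screen as PGY3; chr2:11763217-11764935, minus strand) had 723 and 645 CPM in floral buds, against 334 and 408 in seedlings. The resulting log2 fold change of 0.88 ± 0.16 (FDR 4.22e-07) was called under all 14 alternatives. AT1G08360 rose by 0.63 ± 0.16 (FDR 0.000855) and AT5G22440 by 0.69 ± 0.23 (FDR 0.0135). The last call was lost without floral buds replicate 2 (FDR 0.106) and without seedlings replicate 2 (FDR 0.119).

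The RPL9 gene AT1G33140 (PGY2) had 88 and 95 counts in floral buds versus 39 and 46 in seedlings. In normalized CPM these were 109.6 and 134 in floral buds versus 68.8 and 77.9 in seedlings, which gave a log2 fold change of 0.73 ± 0.26 (FDR 0.0257). The call held in 7 of 14 alternatives, and was lost without floral buds replicate 2 (FDR 0.224), without seedlings replicate 1 (FDR 0.161) and without seedlings replicate 2 (FDR 0.0629). AT1G33120, with the identical protein, had 280.3 and 302 CPM in floral buds versus 203 and 229 in seedlings (0.43 ± 0.19, FDR 0.0785). Neither gene's libraries overlapped. Another RPL9 gene outside the members, AT4G10450, took 30.6% and 28.1% of the family in floral buds versus 26.7% and 22% in seedlings.

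RPL6 and RPL14 lie next to each other on the solvent side of the 60S subunit. AT4G27090 (RPL14; chr4:13593844-13595252, minus strand) had the highest mean CPM of all members over the 4 libraries, and the highest CPM per kb of transcript in both stages. It had 1518 and 1165 CPM in floral buds, against 717 and 854 in seedlings, and ranked between 27 and 150 among the genes of each library. The log2 fold change was 0.77 ± 0.14 (FDR 4.24e-07) and was called under all 14 alternatives. Its paralog AT2G20450 had 152 and 127 CPM in floral buds, against 139 and 137 in seedlings. The floral bud libraries lay on either side of the seedling libraries, and the log2 fold change of 0.02 ± 0.23 (FDR 0.975) was the lowest of any member.

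The RPL6 genes AT1G74050 and AT1G74060 are tandem neighbours, 208 bases apart, with 98.7% identical protein positions. AT1G74060 had 287 and 337 CPM in floral buds versus 185.3 and 184.7 in seedlings (0.75 ± 0.19, FDR 0.000641), and was called under all 14 alternatives. AT1G74050 had 305 and 386 CPM in floral buds versus 328 and 251 in seedlings, with overlap (0.25 ± 0.18, FDR 0.33). AT1G18540, the most abundant copy in counts, rose by 0.47 ± 0.16 (FDR 0.0176) and was called in 8 of 14 alternatives. It was lost without floral buds replicate 1 (FDR 0.0522), seedlings replicate 1 (FDR 0.0624) or seedlings replicate 2 (FDR 0.136).

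RPL13a, a protein of the outer surface known in human cells for a role in translational silencing when released from the ribosome, had 4 members. AT5G48760 (chr5:19771099-19772789, minus strand) had 153 and 154 CPM in floral buds, against 61.8 and 61.0 in seedlings. It had the highest fold change of all members, a log2 value of 1.32 ± 0.26 (FDR 4.31e-06), and was a DEG called under all 14 alternatives. AT3G24830 had 613 and 602 CPM in floral buds, against 369 and 402 in seedlings (0.66 ± 0.16, FDR 0.000362). Both genes' floral bud libraries lay clear of the seedling libraries. AT3G07110 had 389.99 and 319 CPM in floral buds versus 282 and 332 in seedlings, with overlap (0.21 ± 0.17, FDR 0.44). AT4G13170 had 128 and 104 CPM in floral buds versus 98.8 and 77.9 in seedlings (0.40 ± 0.25, FDR 0.266).

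RPL17 lines part of the exit tunnel, and RPL19 forms a bridge to the small subunit. The RPL17 genes were a low family with the highest ratio between the stages. AT1G67430 (chr1:25262134-25263857, plus strand) was a DEG, with 136 and 116 CPM in floral buds versus 51.2 and 57.6 in seedlings (1.21 ± 0.27, FDR 0.000109). AT1G27400 had 68.5 and 66.4 CPM in floral buds versus 40.6 and 27.1 in seedlings (1.00 ± 0.34, FDR 0.0198). The annotation places 2 other genes over AT1G67430 and 1 over AT1G27400. The call of AT1G27400 was lost without floral buds replicate 1 (FDR 0.0868), floral buds replicate 2 (FDR 0.0717) or seedlings replicate 2 (FDR 0.234). Summed, the family had 204 and 182 CPM in floral buds versus 91.8 and 84.7 in seedlings, a ratio of 2.19.

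AT3G05590 (RPL18; chr3:1621355-1623052, plus strand) had 992 and 796 CPM in floral buds, against 457 and 503 in seedlings. The resulting log2 fold change was 0.90 ± 0.15 (FDR 4.6e-08), and the call held under all 14 alternatives. The paralog AT5G27850 had 929 and 768 CPM in floral buds versus 535 and 637 in seedlings (0.54 ± 0.15, FDR 0.00221). It was not called without floral buds replicate 1 (FDR 0.0765) or seedlings replicate 1 (FDR 0.116).

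AT1G02780 (emb2386, another locus of the embryo-defective collection; chr1:607799-609534, minus strand) led RPL19 and was among the 3 highest members in CPM. It had 1405 and 1175 CPM in floral buds, against 766 and 812 in seedlings, which gave a log2 fold change of 0.71 ± 0.14 (FDR 4.63e-06). The call held under all 14 alternatives. AT4G02230 rose by 0.61 ± 0.20 (FDR 0.0136, and 0.188 without seedlings replicate 2). AT3G16780 had 159 and 107 CPM in floral buds versus 81.2 and 98.3 in seedlings (0.58 ± 0.25, FDR 0.0718, and 0.0207 without floral buds replicate 2).

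The remaining families were RPL7, RPL7a, RPL13 and RPL15. The RPL7a genes AT2G47610 and AT3G62870 rose by 0.59 and 0.60 on the log2 scale (FDR 0.00179 and 0.000858), and AT2G47610 was not called without seedlings replicate 2 (FDR 0.0581). AT2G01250 and AT2G44120 (RPL7) rose by 0.58 and 0.67 (FDR 0.00127 and 0.00435), and neither was called without seedlings replicate 1 (FDR 0.0766 and 0.116). AT3G13580, the RPL7 member with the fewest counts, had 126 and 149.7 CPM in floral buds versus 93.6 and 108 in seedlings, and was not called (0.44 ± 0.24, FDR 0.18). AT3G49010 (BBC1, the only RPL13 member) rose by 0.55 ± 0.15 (FDR 0.00149), and was not called without floral buds replicate 1 (FDR 0.0737) or seedlings replicate 1 (FDR 0.119). In RPL15, AT4G16720 rose by 0.61 ± 0.16 (FDR 0.000852) under all 14 alternatives. AT4G17390, whose protein shared 99.5% of positions with it, had 27 and 45 counts in floral buds versus 23 and 24 in seedlings. In normalized CPM its floral bud libraries, 33.6 and 63.5, stood on either side of the seedling libraries, 40.6 and 40.7 (0.24 ± 0.36, FDR 0.701). The annotation places 3 other genes over AT4G17390.

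**Figure D3:**
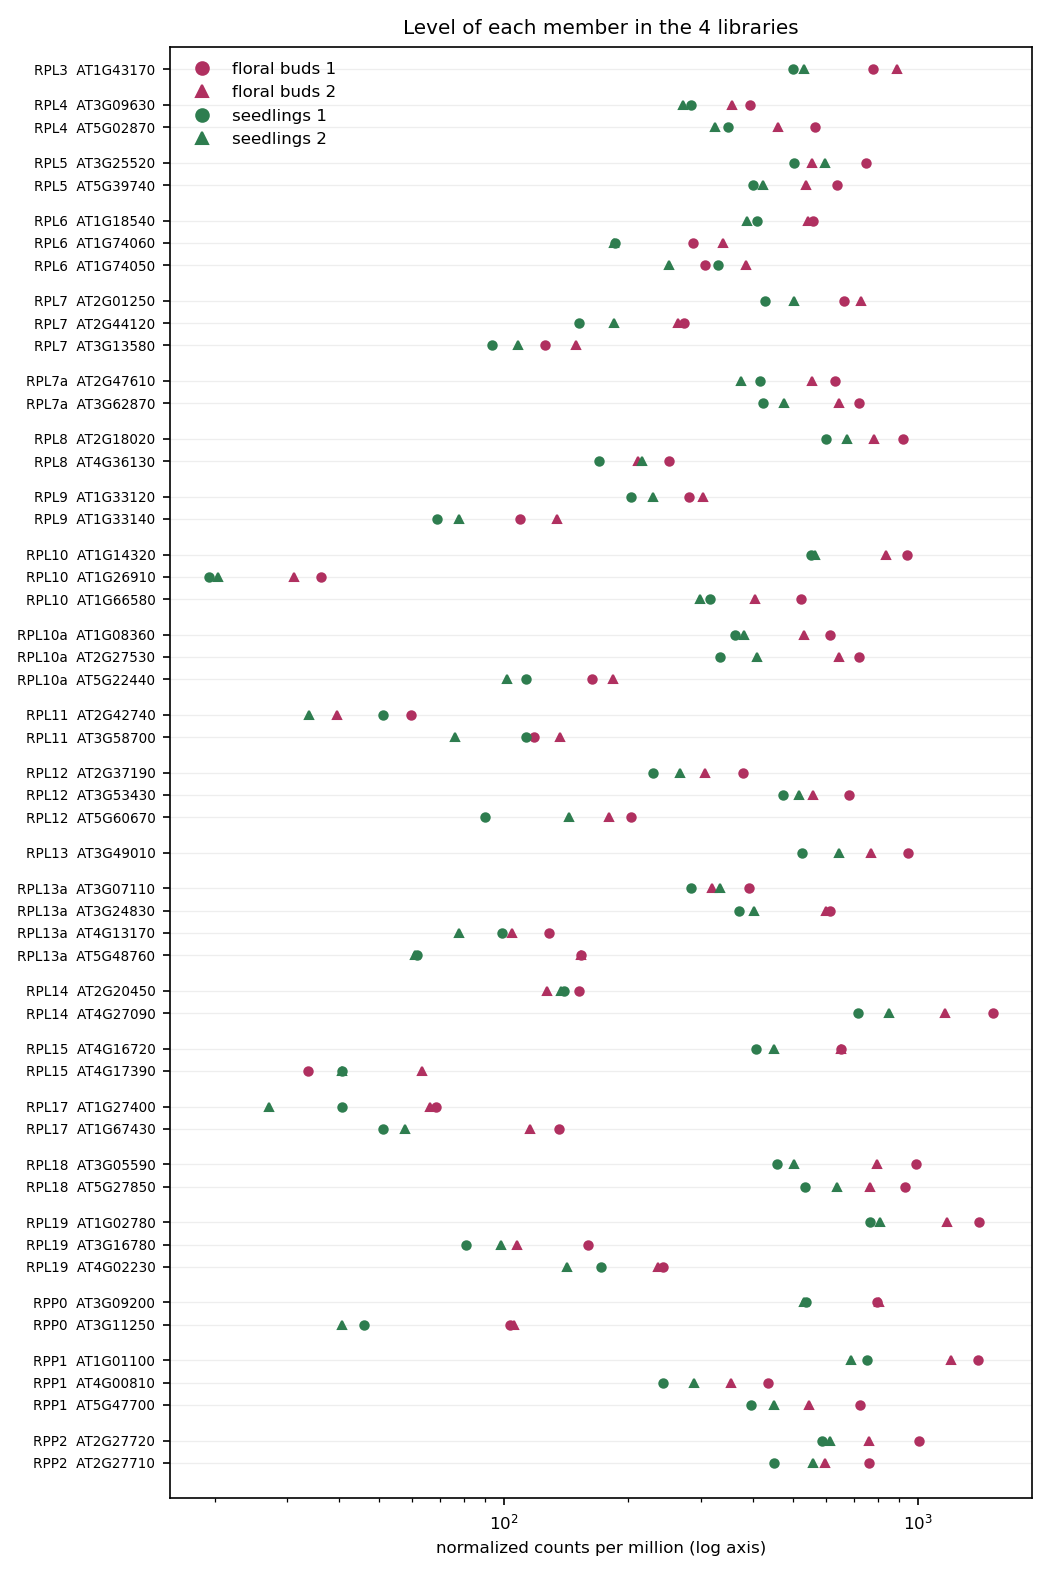
Normalized CPM (log axis) of 51 of the 53 members in the 4 libraries, grouped by family. Floral bud points lie to the right of both seedling points in 44 of these, and the stages overlap in 7, among them AT2G20450, AT3G25520 and AT3G07110.

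Calls were also counted by depth. Of the 35 members with at least 100 counts in every library 28 were called, and of the 18 others 9. The share of all genes called at these depths was not computed. With only the 7195 genes of at least 10 counts in each library tested, 911 were called higher, among them 41 of the 53 members. The 16 members not called had log2 fold changes from 0.02 to 0.75. The 25 called members after the 12 with the smallest FDR had log2 fold changes from 0.42 to 1.00, with FDR between 0.000641 and 0.0403. Across all members the SE ran from 0.14 to 0.45.

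Levels are also given per kb of annotated transcript, although in DRS 1 read stands for 1 molecule and counts need not scale with length. On this scale AT4G27090 (RPL14) had 1837 normalized CPM per kb in floral buds versus 1076 in seedlings, AT1G01100 (RPP1) had 1609 in floral buds and 892 in seedlings, and AT1G02780 (RPL19) had 1163 in floral buds and 711 in seedlings. At the other end AT1G26910 (RPL10) had 35.7 CPM per kb in floral buds versus 21.1 in seedlings. All paralogs of a family in the table summed to between 219 and 2847 CPM per kb in floral buds and between 99.4 and 1719 in seedlings. RPP1, of which several copies sit on each ribosome, was highest, and RPL17 lowest.

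Paralog usage, the share of a family's summed member counts that each paralog took, was compared next in the 21 families with more than 1 member. The leading paralog was the same in all 4 libraries in 19 families. Its mean share in floral buds ran from 45.8% (AT1G18540 of RPL6) to 93.1% (AT4G16720 of RPL15). The median absolute difference of the leading share between the stages was 3.13 percentage points, and the largest difference of any member was 7.71 points. These values leave out paralogs that are not members. With them counted, AT5G45775 led RPL11 in floral buds, with 52.6% and 45.2%, against 38.2% and 34.7% in seedlings. AT4G18730 led RPL11 in seedlings, with 40.5% and 50.5%, against 32.0% and 39.6% in floral buds. With 2 libraries a stage no exact permutation test of a share can give a p below 0.33, so the shares are described by whether the libraries overlapped.

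Counting members alone, the largest difference was in RPL13a. AT3G07110 took 30.4% and 27.1% of RPL13a counts in floral buds, against 34.8% and 38.1% in seedlings. AT5G48760 took 11.9% and 13.1% in floral buds versus 7.61% and 6.99% in seedlings, and AT3G24830 took 47.7% and 51.02% in floral buds versus 45.4% and 46.0% in seedlings. The libraries of these 3 paralogs did not overlap, whereas those of AT4G13170 did (9.99% and 8.86% in floral buds, 12.2% and 8.93% in seedlings). AT3G24830 was the leading paralog in every library. Without floral buds replicate 2 its difference was 1.99 points in place of 3.64.

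In RPL18 the paralog with more counts differed between the stages, by a small margin in floral buds. AT3G05590 took 51.6% (95% Wilson interval 49.1 to 54.1) and 50.9% (48.0 to 53.8) of RPL18 counts in floral buds. In seedlings it took 46.1% (42.0 to 50.2) and 44.1% (40.4 to 47.9), and AT5G27850 led. The intervals of both floral bud libraries and of seedlings replicate 1 include an equal split. The annotation places 2 other genes over AT5G27850 and 0 over AT3G05590, and the effect of this was not tested. Among the members, RPL10a was the other family without a constant leader. AT2G27530 took 48.2% and 47.5% in floral buds versus 41.3% and 45.9% in seedlings, and AT1G08360 took 40.9% and 39.0% in floral buds versus 44.8% and 42.7% in seedlings. AT1G08360 therefore led in seedlings replicate 1 only, and without that library the difference for AT2G27530 was 1.93 points in place of 4.25. The minor paralog AT5G22440 overlapped between the stages, with 10.9% and 13.5% in floral buds versus 14.0% and 11.4% in seedlings.

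In RPL14 the minor paralog AT2G20450 took 9.10% and 9.84% of counts in floral buds, against 16.3% and 13.8% in seedlings, and AT4G27090 took the rest. In RPL5 AT3G25520 (PGY3) took 54.1% and 50.8% in floral buds versus 55.8% and 58.5% in seedlings.

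In RPP1 AT1G01100 took 54.6% and 57.3% in floral buds versus 54.1% and 48.3% in seedlings. The other RPP1 paralogs took less of the family in floral buds, AT4G00810 16.97% and 16.8% against 17.4% and 20.2% in seedlings, and AT5G47700 28.4% and 25.9% against 28.5% and 31.5%. Some of these libraries lay within 1 percentage point of each other, and without seedlings replicate 2 the difference for AT1G01100 was 1.82 points in place of 4.71. The shares of the tandem RPL6 pair moved in opposite directions, although both genes had log2 fold changes above 0 (0.75 and 0.25). The annotation places 1 other gene over AT1G74060 and 0 over AT1G74050, and the effect of this was not tested. AT1G74060 took 24.9% and 26.6% in floral buds versus 20.1% and 22.5% in seedlings, and AT1G74050 took 26.5% and 30.4% in floral buds versus 35.6% and 30.5% in seedlings. Without seedlings replicate 1 the difference for AT1G74050 was -2.04 points in place of -4.56. AT1G18540, the leading RPL6 gene, overlapped (48.6% and 42.9% in floral buds, 44.4% and 47.0% in seedlings).

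**Figure D4:**
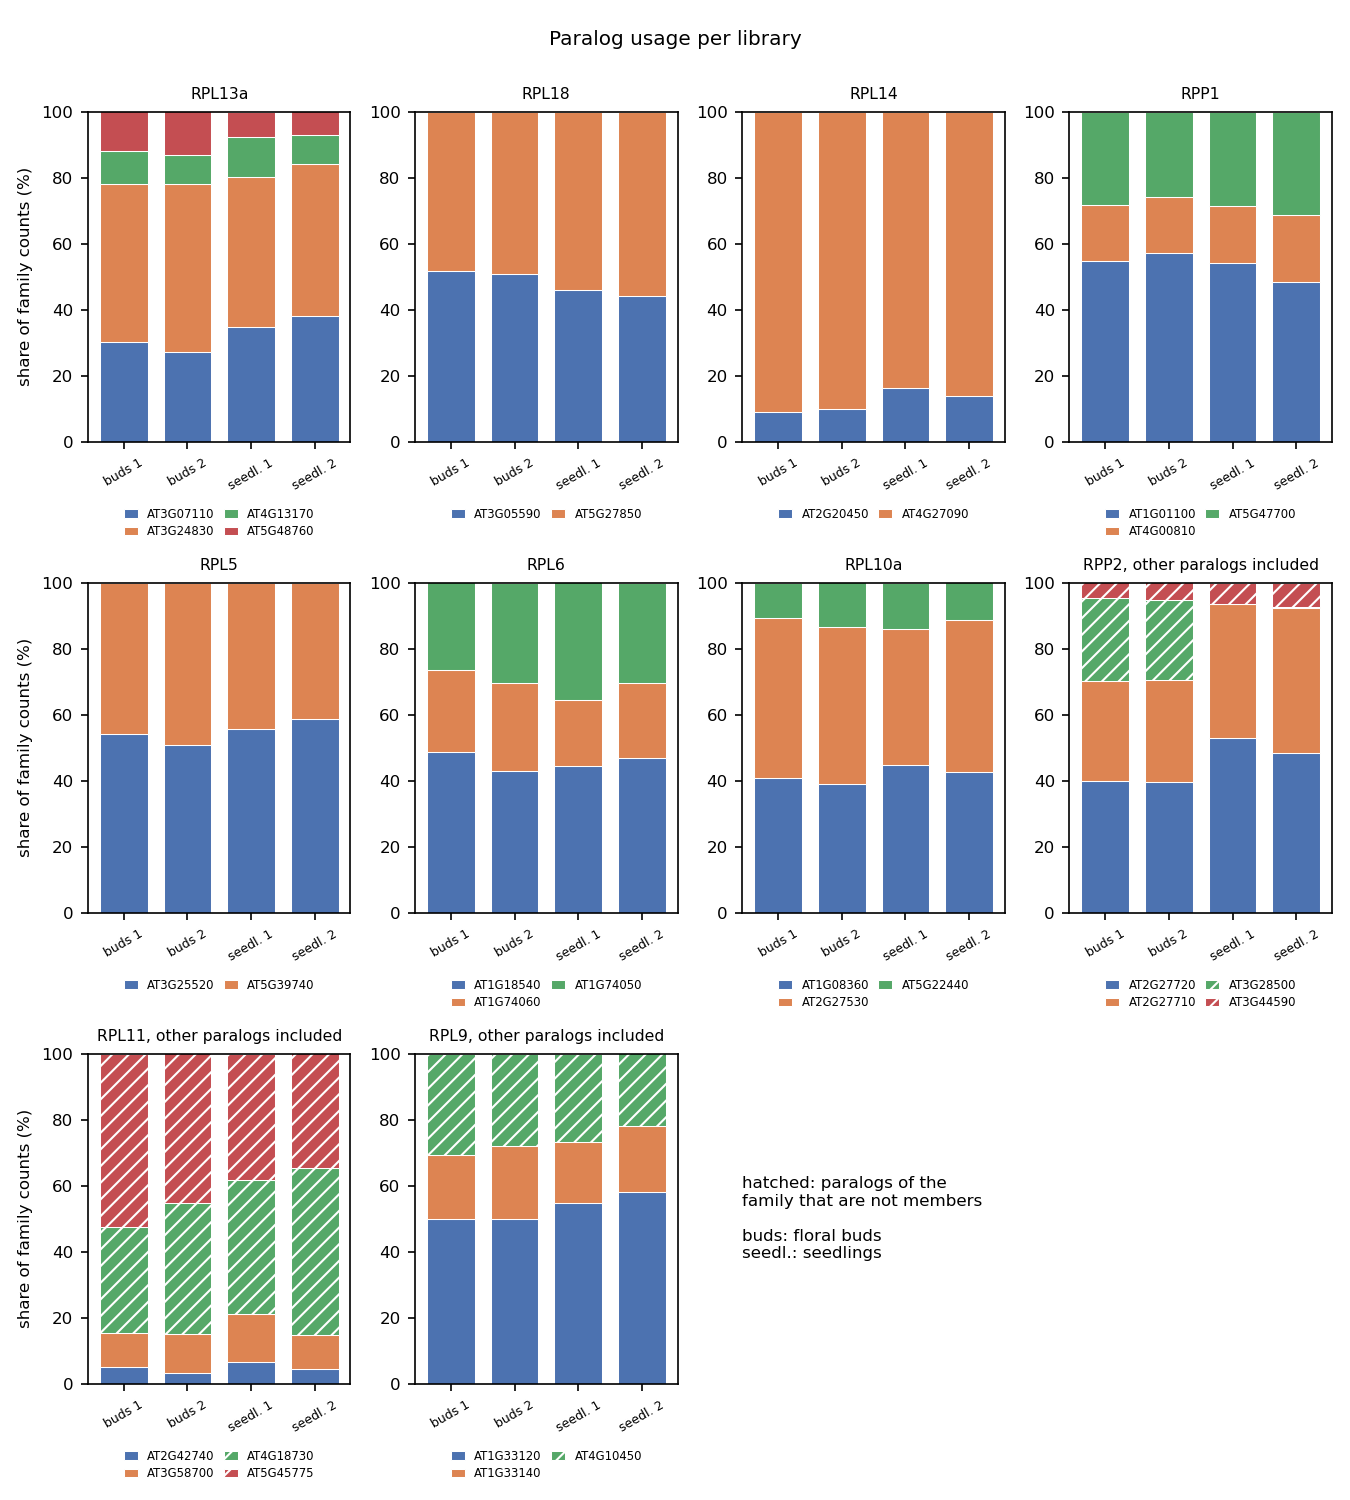
Share of family counts (%) taken by each paralog in the 4 libraries, floral buds left of seedlings. Shown are 7 of the 8 families with the largest usage differences among members. The last 3 panels show RPP2, RPL11 and RPL9 with paralogs that are not members (hatched). AT3G28500 fills 25.2% and 24.2% of RPP2 in floral buds and under 1% in seedlings.

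The upstream sequence of the members shared features that the choice of genes did not use. Plant ribosomal protein promoters are known for the telo box and for site II elements, the latter bound by TCP factors. The telo box AAACCCTA and the site II letters TGGGCC or TGGGCT were searched on both strands in windows of 300 bases, from 250 before to 50 after each annotated transcript start, and overlapping matches were counted separately. Of the 53 members 28 (52.8%) held a telo box, against 6.22% of all 27443 protein-coding genes. Site II letters stood in 48 members (90.6%), against 21.7% of all genes, and both motifs in 26 (49.1%), against 2.2%. Neither was found in 3 members (AT1G74050, AT2G27720 and AT3G13580), and in 74.3% of all genes. A match is a description of the letters and not a bound site.

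Site II matches lay mostly within 150 bases before the start (90 of 118, median position -42.5), while 17 of the 31 telo boxes lay at or after it (median position 3). The 150 bases before the start are printed for the paralogs that differed most in usage in RPL13a and RPL14, with matches in capitals and each sequence 5′ to 3′ on the strand of its gene.
AT5G48760, chr5:19772790-19772939, minus strand: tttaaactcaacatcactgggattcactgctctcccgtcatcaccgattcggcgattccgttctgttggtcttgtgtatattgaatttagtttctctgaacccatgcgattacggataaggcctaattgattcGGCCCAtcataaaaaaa
AT3G07110, chr3:2251796-2251945, plus strand: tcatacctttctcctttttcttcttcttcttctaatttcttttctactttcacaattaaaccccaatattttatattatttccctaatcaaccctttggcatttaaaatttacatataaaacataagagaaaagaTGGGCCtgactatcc
AT4G27090, chr4:13595253-13595402, minus strand: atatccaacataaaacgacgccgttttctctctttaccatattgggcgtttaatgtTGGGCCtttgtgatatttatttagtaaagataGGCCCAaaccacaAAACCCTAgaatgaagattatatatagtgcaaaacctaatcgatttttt
AT2G20450, chr2:8813682-8813831, plus strand: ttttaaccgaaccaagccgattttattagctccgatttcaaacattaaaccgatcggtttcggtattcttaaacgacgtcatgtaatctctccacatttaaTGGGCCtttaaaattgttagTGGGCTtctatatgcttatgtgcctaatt
AT5G48760 and AT3G07110, with the largest gain and the largest loss of usage in floral buds within RPL13a, each had site II letters close to the start, and AT5G48760 also had a telo box at position 31 after it. In RPL14 both paralogs held both motifs, the telo box at position -49 in AT4G27090 and at position 12 in AT2G20450.

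**Figure D5:**
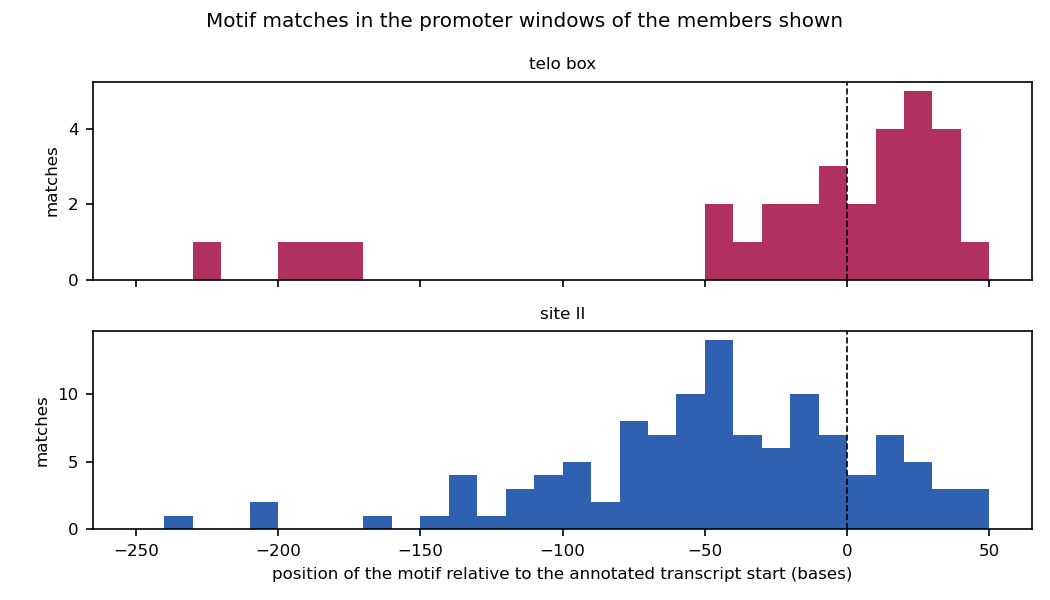
Number of telo box (upper) and site II (lower) matches by position relative to the annotated transcript start, in bins of 10 bases, over the promoter windows of 51 of the 53 members. Site II matches gather before the start (median -43) and telo boxes around it (median 2.5).

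Gene lists of the same machinery are given beside the members. Of 57 other large-subunit genes tested 41 were called higher and 0 lower (median log2 fold change 0.58), and of 89 small-subunit genes 57 higher and 0 lower (median 0.62). At an FDR below 0.05, 3 of 25 ribosome assembly genes were higher and 0 lower (median 0.20), a share like the 12.4% of all genes tested. They were the nucleolin gene AT1G48920 and the fibrillarin genes AT5G52470 and AT4G25630. Translation factors had a median of -0.02, with 4 of 16 higher and 1 lower. Of the 10 further paralogs of the 23 families that could be tested, 3 were higher and 0 lower, namely AT3G28500, AT5G45775 (RPL11, 1.04 ± 0.17, FDR 1.2e-08) and AT4G10450 (RPL9, 0.89 ± 0.23, FDR 0.0012).

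Marker genes of tissues were checked against the labels. All 5 floral organ markers and all 4 tapetum markers were higher in floral buds, with summed shares of 0.118% and 0.115%, and of 0.111% and 0.0899%. In seedlings the floral organ markers AP1, AP3 and AG had no counts in either library, and the tapetum markers summed to 1 and 0 counts. Of 5 photosynthesis markers tested 5 were lower in floral buds, where the list summed to 0.537% and 0.551% of counts, against 2.30% and 2.27% in seedlings, and the marker RBCS1A stood at 0 throughout. The root markers summed to 9 and 2 counts in floral buds and to 810 and 791 in seedlings. Of 7 dividing cell markers 2 were higher in floral buds and 0 lower (median log2 fold change 0.96), with 207 and 128 counts in floral buds versus 67 and 64 in seedlings. The floral organ, tapetum and dividing cell lists were higher in summed share in floral buds, as the members were, and the photosynthesis and root lists were lower. Their part in the members' differences was not tested.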

How the data were processed

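The authors called bases with Guppy, aligned reads with Minimap2 2.17 and assigned them to genes with TrackCluster, where an overlap of 5% sufficed and strand was ignored. The deposited values are estimated counts per gene and library without normalization, and 83.8% of values above 0 were not whole. They were rounded to whole numbers, and genes with at least 5 counts in total were tested with edgeR 4.0.16 (R 4.3.3): upper-quartile factors, glmQLFit and glmQLFTest, stage as the only term, Benjamini-Hochberg FDR. The SE was taken as the size of the log2 fold change over the square root of F. The methods of the study name edgeR with quantile normalization, for which upper-quartile scaling stood in here. Usage and shares came from rounded counts, with 95% Wilson intervals. Sequences, transcript starts and lengths came from RefSeq TAIR10.1, the assembly to which the authors' code aligns, and all 53 members matched by locus. Alternatives used DESeq2 1.42.0 and limma 3.58.1 too, and the quasi-likelihood, exact, DESeq2 and limma-voom fits (not glmTreat) were tested on simulated counts. Members and lists were chosen with earlier results of these data known. Named were members called without overlap (the 12 with the smallest FDR in full), paralogs of the 8 families whose usage differed most, the 3 highest and lowest members, and members with known mutants; the other members are given for completeness. The marker CDKB1;2 and the RPL13 paralog AT3G48960 were not analysed here. The genes of 1 family are counted in the totals and not reported singly here, which leaves 11 of the 12 and 7 of the 8.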

Additional observations from a re-analysis of the deposited data

How the results depend on the processing

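The count of 37 members called stayed within 1.5 times of itself under TMM factors, library size alone, DESeq2, edgeR's exact test, other count filters, unrounded counts (added after the data had been seen) and scaling without ribosomal protein genes. It was 22 with limma-voom after full quantile normalization, and between 23 and 35 when 1 library was left out. The count of 3 DEGs was 6 with limma-voom, 0 with glmTreat against a fold of 2, and between 3 and 5 when 1 library was left out. With glmTreat 0 of the 53 members were called, and this fit is not among the 14 alternatives counted for each member. No cause was tested for these. The median log2 fold change of the members ran from 0.53 to 0.65 when 1 library was left out. The difference in summed share was 1.15 percentage points with counts per kb of transcript, and between 0.914 and 1.12 when 1 library was left out. Without the 50 genes with the most counts, members kept, it was 0.974 points. The median usage difference of the leading paralogs was 3.13 percentage points, and the median replicate SD of their shares was 1.93 points. The study states no pairing of replicates between the stages. The correlation of deviations between the replicates numbered 1 was -0.0529, which cannot show whether plants or sowings were shared. With the replicate block 32 members were called. The log2 fold change of AT2G20450 was below 0 with limma-voom (-0.0082), with no count filter (-0.031) and when scaled without ribosomal protein genes (-0.022). When 1 library was left out it ran from -0.112 to 0.111 in AT2G20450, from -0.091 to 0.548 in AT2G42740 and from -0.296 to 0.653 in AT4G17390. None of these was called. The 37 called members were called in 442 of 518 combinations of a member and an alternative, and the 16 others in 11 of 224. With 2 libraries a stage, SE of up to 0.45 on the log2 scale in the members with the fewest counts limit what could be called.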
